A study of Mus musculus with 49 samples.

Results

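The 10 genes examined here mark astrocytes and were followed through every library of the series, as a measure of how much astrocyte RNA each isolation method carried. They are Slc1a2, Slc1a3, Apoe, Clu, Gfap, Aqp4, Gja1, S100b, Aldh1l1 and Sox9. They were chosen as textbook astrocyte markers and not by a rule on measured values, though earlier results of these data were known. All 10 are among the 52636 genes counted. The 47 libraries came from the nucleus accumbens (NAc) of C57BL/6J mice, 1 mouse a library, in which medium spiny neurons (MSNs) that express the dopamine receptor gene Drd1 or Drd2 were labelled. Ages of the mice were not given in the sources used here.

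Whole cell-FACS libraries (8 D1, 6 D2) held total RNA of sorted cells, from fresh tissue digested with papain, of mice heterozygous for a cytoplasmic fluorophore driven by Drd1 or Drd2. Nuclear-FACS libraries (6 D1, 5 D2) held RNA of sorted nuclei from frozen, dounced tissue of Drd1-cre or Drd2-cre mice crossed to Thy1-loxPSTOPloxP-EGFP-F, which labels the nucleus with GFP. RiboTag libraries held RNA immunoprecipitated with HA-tagged ribosomes from fresh tissue of Drd1-cre or Drd2-cre mice crossed to Rpl22-loxPexon4loxP-exon4-HA. They comprised 6 D1 and 6 D2 libraries labelled male, and 5 D1 and 5 D2 labelled female. Whole cell and nuclear libraries were all labelled male. In whole cell and RiboTag libraries the label rests on the Drd1 or Drd2 promoter alone, and in nuclei on that promoter and on Thy1.

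Astrocytes are the glial cells that take up glutamate and potassium at synapses, supply neurons with lipid and lactate, and couple to each other by gap junctions. Their processes wrap neurons closely, and astrocyte RNA is a usual measure of other cells or free RNA in a preparation of sorted neurons. Slc1a2 (GLT-1) and Slc1a3 (GLAST) encode the glutamate transporters of astrocytes, and Slc1a2 is also transcribed at a lower level in some neurons. Apoe and Clu encode secreted apolipoproteins that carry lipid. Gfap encodes an intermediate filament, Aqp4 the water channel of the end-feet, Gja1 the gap junction protein connexin 43, S100b a calcium-binding protein, Aldh1l1 an enzyme of folate metabolism, and Sox9 a transcription factor of the glial lineage.

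The genes differ much in length, which matters for counts that cover introns as well as exons. Slc1a2 (ENSMUSG00000005089) spans 132.13 kb of the plus strand of chromosome 2, from 102658659 to 102790784 of the build GRCm38. Aldh1l1 (ENSMUSG00000030088) spans 113.78 kb on chromosome 6, from 90486427 to 90600203, and Slc1a3 (ENSMUSG00000005360) 76.641 kb on chromosome 15, from 8634124 to 8710764. Apoe (ENSMUSG00000002985) is the shortest at 3.08 kb, on the minus strand of chromosome 7 from 19696109 to 19699188. Clu (ENSMUSG00000022037, chromosome 14, 65968483 to 65981547), Gfap (ENSMUSG00000020932, chromosome 11, 102887336 to 102900912), Gja1 (ENSMUSG00000050953, chromosome 10, 56377330 to 56402513) and Aqp4 (ENSMUSG00000024411) span 13.065 to 25.184 kb. Sox9 (ENSMUSG00000000567, chromosome 11, 112782224 to 112787760) and S100b (ENSMUSG00000033208, chromosome 10, 76253853 to 76261159) span 5.537 and 7.307 kb. Since the counting ignored strand, reads of Slc1a2 cannot be told apart from those of the antisense gene Gm13872 that overlaps it. Gfap and S100b (with the coding gene Dip2a) are uncertain for the same reason. Slc1a3 is overlapped by a gene on its own strand, and Aldh1l1 by 3 genes on both strands, so they are uncertain too.

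The promoters of 3 members are shown: Slc1a2 and Apoe, which had the 2 smallest adjusted p among members between D1 and D2 nuclei, and Slc1a3, the other glutamate transporter, which did not pass that test. Each line is the 250 bases before a RefSeq start in GRCm38.p6, read 5′ to 3′ on the strand of the gene. The Slc1a2 window is chr2:102706188-102706437 (plus), which lies inside the gene as annotated for the counts. The Apoe window, that of the first of 3 RefSeq starts, is chr7:19699189-19699438 (minus) and the Slc1a3 window chr15:8710808-8711057 (minus). Capitals mark the searched motifs, TTGGC or its reverse complement (the half-site of nuclear factor I) and TTCNNNGAA (the site of STAT factors).
Slc1a2: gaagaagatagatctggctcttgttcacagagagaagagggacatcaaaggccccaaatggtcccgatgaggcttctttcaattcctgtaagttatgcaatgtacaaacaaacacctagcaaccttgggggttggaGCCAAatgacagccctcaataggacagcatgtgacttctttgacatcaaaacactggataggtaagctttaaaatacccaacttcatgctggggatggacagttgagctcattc
Apoe: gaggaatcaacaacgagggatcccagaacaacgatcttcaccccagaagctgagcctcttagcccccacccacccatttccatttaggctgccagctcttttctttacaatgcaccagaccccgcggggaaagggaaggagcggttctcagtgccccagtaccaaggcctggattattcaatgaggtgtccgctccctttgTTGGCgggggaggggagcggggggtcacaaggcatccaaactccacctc
Slc1a3: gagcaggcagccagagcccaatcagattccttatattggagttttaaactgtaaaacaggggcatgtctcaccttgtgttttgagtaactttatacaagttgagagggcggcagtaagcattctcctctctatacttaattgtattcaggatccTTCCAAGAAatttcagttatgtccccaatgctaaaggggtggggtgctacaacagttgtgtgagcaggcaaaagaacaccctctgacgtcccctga

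The Slc1a2 window and the Apoe window shown each held 1 TTGGC, a motif present on either strand in 41.5% of 32851 windows of this length, and of the other 2 Apoe windows 1 held it. The Slc1a3 window held 1 TTCNNNGAA, present in 7.02% of windows. The S100b window held 3 TTGGC, and those of Gfap, Gja1 and Aldh1l1 held neither motif.

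The whole cell libraries held 10476223 to 27965357 counts, the nuclear libraries 3701255 to 68777008 and the RiboTag libraries 24076888 to 45641342. In RiboTag libraries 84.9 to 88.3% of counts fell on 10 genes. In nuclear D1 libraries 1, 5 and 6 that share was 60.9 to 66.9%, against 20.3 to 32.5% in nuclear D1 libraries 2, 3 and 4, and these 3 libraries were left out in an alternative. The labels for sex were not met everywhere. Of the 12 RiboTag libraries labelled male, 6 (D1 libraries 1, 2, 3 and 4 and D2 libraries 2 and 6) had more Xist than the summed Y-linked genes Ddx3y, Uty, Kdm5d and Eif2s3y, and results that rest on the group labelled male are given with and without them. All other libraries matched their label. The targeted receptors followed the cell type labels in whole cell libraries, where Drd1 had a median of 71.9 scaled CPM in D1 and 2.39 in D2, and Drd2 of 8.91 and 333. In nuclei Drd1 ranged from 4.55 to 21.7 in D1 and from 0.742 to 2.25 in D2, without overlap, and Drd2 from 33.0 to 108 and from 58.6 to 139, with overlap. Summed levels of 5 D1-MSN genes were 14.9 to 47.7 in D1 nuclei and 7.77 to 11.9 in D2 nuclei. Those of 5 D2-MSN genes were 75.1 to 367 (median 260) in D1 nuclei and 68.2 to 171 (median 120) in D2 nuclei. The D2-MSN sum was thus not higher in D2 nuclei. Levels are given as scaled CPM, counts relative to library size after TMM scaling over all 47 libraries, unless said otherwise.

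Slc1a2 had the highest level of the 10 members in all 47 libraries, and it was lowest in whole cells and highest in D1 nuclei. Its level was 20.1, 23.4 and 24.9 scaled CPM (lowest, median and highest of 8) in whole cell D1 and 15.4, 18.6 and 31.0 (of 6) in whole cell D2. In nuclear D1 it was 245, 335 and 825 (of 6). The 5 nuclear D2 libraries held 55.5, 75.5, 110, 133 and 138. RiboTag D1 libraries ranged from 131 to 176 (labelled male) and from 99.7 to 166 (labelled female), and RiboTag D2 libraries from 69.4 to 103 and from 71.1 to 95.1. Every nuclear D1 library thus lay above every library of the other groups, every RiboTag library lay above every whole cell library, and nuclear D2 overlapped RiboTag.

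Apoe had its lowest median in whole cell D1 and its highest in nuclear D1 libraries. In whole cell D1 it was 0.643, 0.775 and 1.25 scaled CPM, and in whole cell D2 0.733, 1.27 and 3.17. Nuclear D1 libraries held 18.1, 75.1 and 153, with the highest levels of 104, 119 and 153 in libraries 6, 5 and 1, those with most of their counts on 10 genes. The 5 nuclear D2 libraries held 2.70, 4.23, 6.51, 10.0 and 11.0. RiboTag libraries of both cell types ranged from 5.12 to 15.5, and the D1 and D2 libraries overlapped there.

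Clu was highest in nuclear D1 and RiboTag libraries. It ranged from 3.24 to 12.0 scaled CPM over the 14 whole cell libraries, from 9.41 to 39.8 in nuclear D1, from 3.50 to 6.46 in nuclear D2 and from 19.9 to 27.1 over the 22 RiboTag libraries. The nuclear D2 range lay within the whole cell range. Slc1a3 ranged from 42.9 to 78.9 in nuclear D1 and from 16.1 to 27.2 in nuclear D2, against 4.53 to 13.1 in whole cell and 3.07 to 10.3 in RiboTag libraries.

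**Figure D1:**
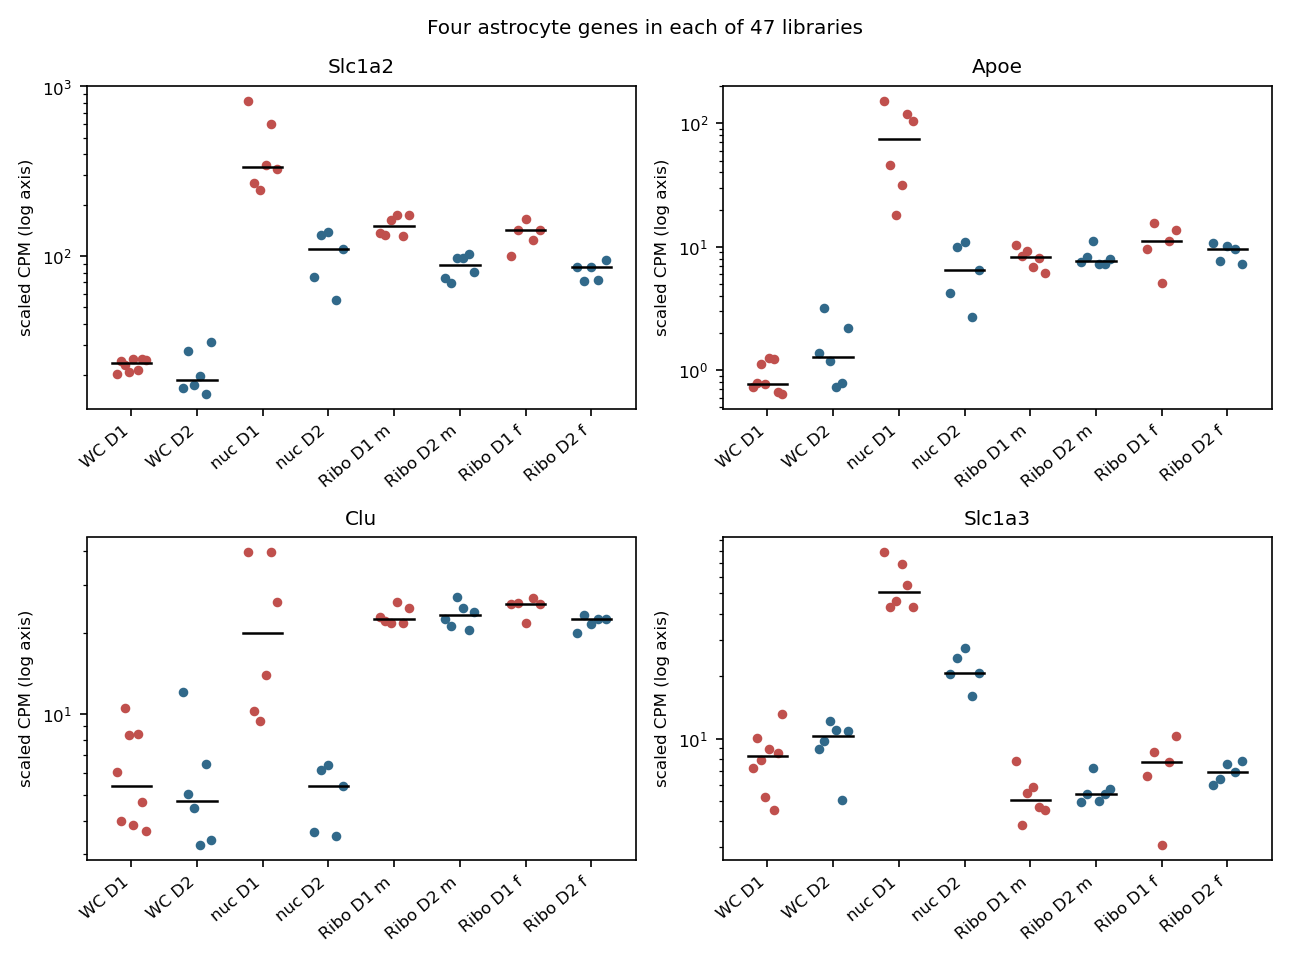
Levels of Slc1a2, Apoe, Clu and Slc1a3 in each of 47 libraries, in scaled CPM on a log axis. WC is whole cell, nuc nuclear and Ribo RiboTag, m and f are the labels male and female, a point is a library (red D1, blue D2) and a bar is the group's median. Nuclear D1 libraries are the highest group for Slc1a2 (245 to 825), Apoe (18.1 to 153) and Slc1a3 (42.9 to 78.9).

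The other 6 members were mostly low, apart from Aldh1l1, which in whole cells had a median of 13.4 (D1) and 13.7 (D2), second to Slc1a2. Aldh1l1 spans 113.78 kb, and per kb of span it ranked only 6 of 10 there, with medians of 0.117 (D1) and 0.121 (D2). Gfap, the classical marker, reached 7.07 scaled CPM in a nuclear D1 library, and had 2 to 13 counts in RiboTag libraries apart from RiboTag D1 male library 2, where it had 0 of 28722564 counts, which allows up to 0.104 CPM (3 counts, counting error only). Aldh1l1 ranged from 3.09 to 20.3 scaled CPM in whole cell, from 5.49 to 23.5 in nuclear and from 0.485 to 1.93 in RiboTag libraries. Gja1 and Aqp4 reached 25.5 and 14.1 in nuclear D1 and stayed at or below 3.55 and 2.51 in whole cell and RiboTag libraries. Sox9 and S100b reached 9.85 and 5.12 in nuclear D1 and were at most 2.33 and 1.41 in the other methods. Aqp4 and Sox9 had no count in whole cell D2 library 1 and Sox9 none in whole cell D2 library 4, which allows up to 0.277 and 0.267 CPM in these libraries.

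Per kb of gene span, Apoe ranked first in nuclear D1 (median 24.4 scaled CPM per kb), ahead of Slc1a2 (2.54) and Clu (1.52). Libraries of Slc1a2 (1.85 to 6.24) and Clu (0.720 to 3.04) overlapped in that order, and so did those of Gja1 (median 0.550) and Sox9 (0.532). In RiboTag D1 libraries labelled male the order was Apoe (2.67), Clu (1.72) and Slc1a2 (1.13), then Sox9 at 0.253. On annotated exon length instead, which fits RNA without introns, Slc1a2 came first there at 11.4 scaled CPM per exon kb, before Clu (6.54) and Apoe (3.85). In whole cell D1 the 10 members lay close together, from 0.0753 (Aqp4) to 0.411 (Clu) per kb of span.

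These levels were set against a background measured in the same libraries. Olfactory and vomeronasal receptor genes are not known to be transcribed in the NAc, so the counts per kb on 1289 of them that overlap no other gene were taken as the level of reads on genes without transcripts. Multiplied by a member's span, this gives the count that background alone would give. Extended over all genes, background would make up 13.3 to 52.4% of the counts in whole cell D1 libraries, 8.21 to 36.8% in whole cell D2, 0.528 to 22.0% in nuclear D1 and 32.7 to 52.6% in nuclear D2, but at most 0.0579% in RiboTag libraries.

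In whole cell libraries, most astrocyte genes lay within a few times background. In whole cell D1, 7 of the 10 members stayed at or below 4 times background in all 8 libraries, and in whole cell D2 6 of 10 did in all 6. Aqp4 had a median of 1.27 times background in whole cell D1, Gja1 of 1.53, Slc1a3 of 1.63 and Gfap of 1.93. Slc1a2 was at 2.06 to 5.21 times background over the 14 whole cell libraries. Only Apoe (2.34 to 18.3) and Clu (3.14 to 38.0) went past 10 times background in any whole cell library, and no member did so in all libraries of a group.

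In nuclear D2 libraries 6 of the 10 members were likewise at or below 4 times background in all 5 libraries, and in nuclear D1 none were. Slc1a2 was 30.0 to 1123 times background in nuclear D1 and 4.58 to 13.8 times in nuclear D2. Apoe was 95.2 to 8923 and 9.58 to 47.2 times background in the same groups. In RiboTag libraries, with little background, Slc1a2, Apoe and Clu were at 570 to 5168 times background. Aldh1l1 was the member nearest to it there, at 4.62 to 20.3 times with 5 to 25 counts a library. Low levels in RiboTag libraries were thus above background and similar levels in whole cell libraries were not clearly so.

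**Figure D2:**
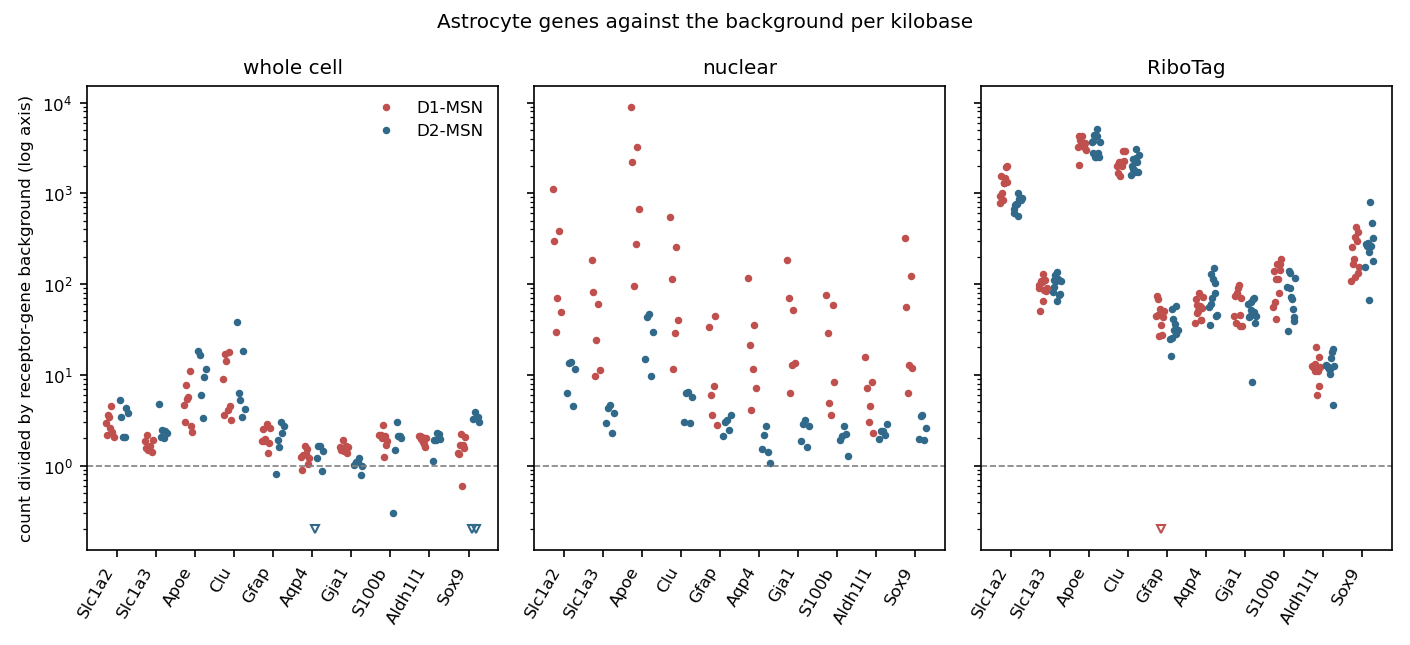
Counts of the 10 members in each library divided by the count expected from receptor-gene background, on a log axis, for whole cell, nuclear and RiboTag libraries (both sex labels). Points are libraries (red D1, blue D2), the dashed line is background, and open triangles at the foot are counts of 0. The Slc1a2 points lie at 2.06 to 5.21 in whole cell and at 570 to 2018 in RiboTag libraries, and the lowest RiboTag point other than a count of 0 is at 4.62.

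The members did not vary as one set among libraries of a method. After centring on each group, the 45 pairs of members had a median Pearson r of 0.46 in whole cell (n = 14), 0.53 in nuclear (n = 11) and 0.23 in RiboTag libraries (n = 22). Libraries share their depth and scaling with all genes, so these are descriptions. In whole cell libraries most, but not all, of the members that lay near background varied with it. Gja1 had r = 0.97 (rho = 0.98) with background per kb over the 14 libraries, and r = 0.96 without the 2 libraries farthest from the median background. Aldh1l1 had r = 0.95, Gfap 0.93, Aqp4 0.86, S100b 0.83 and Slc1a3 0.81, while Slc1a2 had 0.61, Sox9 0.44, Apoe 0.04 and Clu -0.90. The 3 genes most like the mean of the members were Zc3hav1 (r = 0.98), Syk and Bcl7c in whole cell, Mn1 (0.98), Rdx and Glul in nuclear, and Cblb (0.86), 3110082I17Rik and Herpud1 in RiboTag libraries. Glul, the glutamine synthetase of astrocytes, was the one of these 9 that was also on the list of other astrocyte genes.

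D1- and D2-MSNs were first compared within nuclei. In D2 nuclei 4 members were lower: Apoe, Slc1a2, Clu and Gja1. Apoe had the largest change, with 117 to 545 scaled CPM (median 319) in D1 and 31.1, 42.7, 55.2, 78.3 and 89.8 in D2, on the scale of this comparison, and no D2 library reached a D1 library. Its log2 fold change, D2 against D1, was -2.47 ± 0.44 (SE, adjusted p = 0.0081, edgeR). Slc1a2 was at 1042 to 2864 (median 1700.3) in D1 and at 638, 762, 938, 1042 and 1123 in D2. Only 1 D1 library, number 2, lay within the D2 range. The change of Slc1a2 was -1.05 ± 0.24 (adjusted p = 0.012).

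Clu fell by 1.14 on the log2 scale (SE 0.30, adjusted p = 0.023). Its D1 libraries split, with 136, 138 and 153 in libraries 6, 1 and 5 and 39.7 to 68.2 in the others, against 36.8 to 52.6 in D2. Gja1 fell by 0.63 (SE 0.18, adjusted p = 0.027), from 46.9 to 88.5 in D1 to 41.4 to 49.8 in D2. These 4 calls of 9 members tested stand beside 9.84% of 9919 genes called lower in D2 and 3.34% called higher. Gfap stood at 1.01 ± 0.40 (adjusted p = 0.088; -0.09 without the FPKM filter), Sox9 at -0.85, Slc1a3 at -0.37, Aqp4 at -0.35 and S100b at 0.01, and none of them passed. Aldh1l1, below the filter on FPKM, was the one member whose D2 libraries all lay above D1, with 159 to 260 against 21.3 to 139. After centring on each group, Aldh1l1 was also the member that followed background per kb most closely in nuclei (r = 0.82, n = 11). Background was higher in D2 nuclei, and its part in the Aldh1l1 levels was not tested.

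The libraries and the scaling moved these values. Without nuclear D1 libraries 1, 5 and 6, Apoe (-1.43) and Slc1a2 (-0.78, adjusted p = 0.0495) were still called, and Clu (-0.45, adjusted p = 0.14) and Gja1 (-0.48, adjusted p = 0.062) were not. Of 12366 genes 179 were then called higher and 593 lower in D2. Gja1 was also lost without any one of D2 libraries 1, 2, 5 and 7, and Clu without 1, 5 or 7. Without the FPKM filter the scaling changed, the median of all genes moved from 0.09 to 0.38, and 7 members were called lower in D2, beside 18.7% of all genes (3.54% higher), with Slc1a2 at -2.23 and Apoe at -3.66. With background subtracted, Sox9 (-1.22, adjusted p = 0.037) was called beside the same 4, when 650 of 11980 genes were called higher and 1214 lower in D2.

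Other astrocyte genes and neuronal genes were also lower in D2 nuclei. Of 32 other astrocyte genes 20 were tested in nuclei, and 9 were called lower in D2 and none higher, with a median log2 fold change of -0.72 against 0.09 over all genes. They included the glycolytic enzyme gene Aldoc (-2.21), the cystatin gene Cst3 (-1.75) and Glul (-1.72). Of 8 pan-neuronal genes 5 were also lower in D2 nuclei and 1 higher, with a median of -1.11. Of 8 genes shared by MSNs 3 were lower, with a median of -0.53. The median of the 9 members tested was -0.63. Of 4 D2-MSN genes tested 1 was called higher and 1 lower in D2 nuclei, with a median of -0.62. Of 4 D1-MSN genes tested 1 was called lower. Of 8 oligodendrocyte genes 1 was lower, and neither of 2 microglial genes tested was called. Summed levels of the 10 members were 362 to 1161 scaled CPM in nuclear D1 and 112 to 220 in nuclear D2, those of 8 oligodendrocyte genes 234 to 697 and 96.6 to 226, and those of the pan-neuronal genes 828 to 2350 and 337 to 661. None of the 10 members was at 0 in a nuclear library. The part of depth, background (higher in D2) and other cells in these differences was not tested, and fewer astrocytes and less RNA per astrocyte cannot be told apart in such libraries.

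In RiboTag libraries a single member differed between the cell types. Slc1a2 was lower in D2 in both sets, while Apoe and Clu, the other 2 members with enough counts to be tested, did not pass. In libraries labelled male, on the scale of that comparison, Slc1a2 was 41.4, 46.0 and 55.6 (lowest, median, highest of 6) in D1 and 22.9, 26.9 and 31.5 in D2, and the groups did not overlap. Its log2 fold change was -0.82 ± 0.08 (SE, adjusted p = 7.7e-08). In libraries labelled female the 5 D1 libraries held 33.4, 41.1, 47.6, 48.4 and 55.7 and the 5 D2 libraries 23.3, 23.7, 27.5, 27.5 and 31.0, again without overlap, with a change of -0.76 ± 0.10 (adjusted p = 5.4e-05). Of all genes tested 1.61% were called lower and 0.938% higher in D2 in the set labelled male, and 1.17% and 0.719% in the set labelled female.

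Apoe stood at 0.00 ± 0.13 and Clu at 0.00 ± 0.07 in the set labelled male, and at -0.33 ± 0.19 (adjusted p = 0.45) and -0.25 ± 0.07 (adjusted p = 0.064) in the set labelled female. Without RiboTag D1 female library 4, which was low in Apoe, that change was -0.51 (adjusted p = 0.036) and passed. Without the 6 libraries at odds with their label, Slc1a2 stood at -0.78 (adjusted p = 0.00012) in the set labelled male. Slc1a3, tested only without the FPKM filter, stood at 0.05 and -0.11. Of 32 other astrocyte genes 12 were tested in each set, and Sparcl1, which encodes a secreted synapse-organising protein, was the only 1 called, at -0.68 ± 0.10 (adjusted p = 2.7e-05) in the set labelled male. Of 3 oligodendrocyte genes tested there 2 were higher in D2, and of 4 tested in the set labelled female none was called, with a median of -0.30.

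In whole cells no member was called between D1 and D2. Apoe (0.74 ± 0.43, adjusted p = 0.47) and Clu (-0.26 ± 0.21, adjusted p = 0.68) were the 2 members that passed the filter on FPKM, beside 0.404% of 16824 genes called higher and 0.868% called lower in D2. Apoe was 3.84 to 8.30 in D1 and 3.31 to 19.6 in D2 on the scale of this comparison, so the groups overlapped. Without the FPKM filter all 10 were tested and none called, from -0.77 (Gja1, adjusted p = 0.83) to 0.88 (Apoe, adjusted p = 0.79), beside 0.0554% and 0.0438% of 34270 genes. Of the 10, Apoe alone had an unadjusted p of at most 0.05 there in edgeR, and DESeq2 called neither of the 2 members in the filtered set. Slc1a2, the member that differed in both nuclear and RiboTag libraries, stood at -0.05 ± 0.19. It did not pass the FPKM filter and lay within a few times background in whole cells, so this value does not show equal levels in D1 and D2.

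Among reactive astrocyte genes 1 of 6 tested was higher in whole cell D2, Cd44 (4.36 ± 1.07, adjusted p = 0.047), which encodes a hyaluronan receptor. It stood at 2328, 3567 and 6274 scaled CPM in D2 libraries 5, 2 and 6 and at 17.0, 17.2 and 20.5 in D2 libraries 3, 4 and 1. The 3 high libraries had 20.2 to 54.5% of their counts on 10 genes and the others 3.15 to 5.08%.

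**Figure D3:**
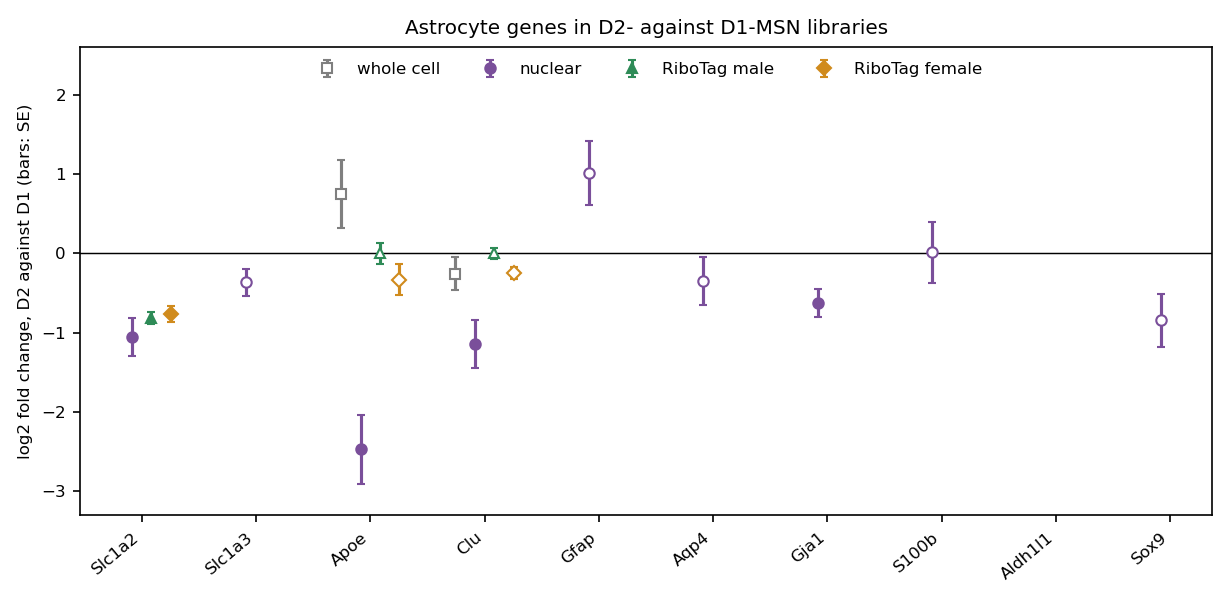
Log2 fold change of each member, D2 against D1, in the 4 comparisons of cell type, with SE as bars and called members filled. A member without a symbol did not pass the filter on low values in that comparison. Slc1a2 is called in nuclear (-1.05), RiboTag male (-0.82) and RiboTag female (-0.76) libraries, and Apoe only in nuclear libraries (-2.47).

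The D2 against D1 change was itself compared between methods in 1 fit over the male-labelled libraries, on the scale of all libraries. It was more negative in nuclei than in whole cells for Apoe (difference -4.31 ± 0.54, adjusted p = 3.4e-06), Clu (-2.09), Slc1a2 (-1.98), Slc1a3 (-1.60) and Sox9 (-2.29, adjusted p = 0.048). Of 36239 genes 11.8% passed below 0 and 6.69% above, with a median of 0.61. Against RiboTag the nuclear change was more negative for Apoe (-3.52), Clu (-2.20), Aqp4 (-2.09, adjusted p = 0.047), Slc1a3 (-1.43) and Slc1a2 (-1.27 ± 0.34, adjusted p = 0.013), beside 9.82% of genes below 0 and 1.2% above, with a median of 0.29. Without the 6 libraries at odds with their sex label, the differences against RiboTag were of similar size (Apoe -3.73, Slc1a2 -1.36) but none passed, with adjusted p from 0.096, when 0.0166% of all genes passed below 0 and 0.00552% above, and Sox9 against whole cells was lost (adjusted p = 0.073), when 9.37% of genes passed below 0 and 4.38% above. No member passed between RiboTag and whole cells, where Slc1a2 stood at -0.71 (unadjusted p = 0.034). Of all genes 0.0193% passed below 0 and 0.0855% above there, and 0.00276% and 0.00552% without the 6 libraries.

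The methods were then compared within a cell type, in libraries labelled male. In D1-MSNs, nuclear libraries held more of 8 of the 10 members than whole cell libraries. The largest changes, nuclear against whole cell, were those of Apoe (6.45 ± 0.45, adjusted p = 5.1e-07), Slc1a2 (4.25 ± 0.28, adjusted p = 2.1e-07) and Sox9 (3.11 ± 0.44). Slc1a3 (2.77), Gja1 (2.64) and Aqp4 (2.28) followed, and for these 6 no nuclear library reached down to a whole cell library. The share of all genes without overlap between groups is not given for this or any other comparison. Such statements describe the members only. Clu (1.90) and S100b (1.53) were also called but stood at 0.85 and 0.82 and were lost without nuclear D1 libraries 1, 5 and 6. Gfap (0.70) and Aldh1l1 (-0.04) were not called. Over 33207 genes 7.35% were called higher and 3.13% lower in nuclei, with a median of -0.38. With background subtracted from the counts the same 8 were called, with Slc1a2 at 4.40, Aqp4 at 4.09 and Apoe at 6.34. Of 31535 genes 2218 were then called higher and 1957 lower in nuclei.

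Among the other astrocyte genes 19 of 32 were higher and none lower in D1 nuclei, among them Aldoc (4.71) and the matrix gene Bcan (3.65). In the same comparison 7 of 8 oligodendrocyte genes, 4 of 8 microglial and 2 of 8 pan-neuronal genes were higher too. Of 12 reactive astrocyte genes Timp1 was higher (1.75) and Cd44 lower (-2.56).

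In D2-MSNs 4 members were higher in nuclear than in whole cell libraries: Slc1a2 (2.26 ± 0.27, adjusted p = 5.6e-05), Apoe (2.14 ± 0.44), Gja1 (1.80 ± 0.38) and Slc1a3 (1.17 ± 0.22). Of these, Apoe overlapped between the groups. The other 6 stood between -0.20 (Clu) and 1.06 (Aqp4) and did not pass, although no nuclear library reached down to a whole cell library for Aldh1l1 (0.86, adjusted p = 0.11; called by DESeq2). Over all genes 2.31% were called higher and 8.59% lower. Of 31 other astrocyte genes tested 6 were higher, among them Bcan (2.41), and 2 lower, among them Mt3 (-2.18), which encodes a metallothionein. Of the other lists 5 of 8 oligodendrocyte genes were higher and 1 lower, and 5 of 8 pan-neuronal genes, 5 of 8 shared MSN genes and 5 of 5 D2-MSN genes were lower.

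RiboTag and whole cell libraries differed in both directions. In D1-MSNs Apoe (3.18 ± 0.21), Slc1a2 (2.74 ± 0.16), Clu (1.90 ± 0.23) and Sox9 (1.17 ± 0.36) were higher in RiboTag libraries. Aldh1l1 (-3.73 ± 0.30), Gfap (-2.40 ± 0.46), Gja1 (-1.04), Aqp4 (-0.86) and Slc1a3 (-0.60) were lower, and S100b stood at -0.23. Of 32498 genes 65.7% were called lower and 19.1% higher in RiboTag, with a median of -2.38, and Aldh1l1 and Gfap fell below it. With protein-coding genes only the median was -0.90, Aldh1l1 (-3.61) and Gfap (-2.30) fell below it, and Gja1 stood at -0.90 too. The 3 members lowered least, Gja1, Aqp4 and Slc1a3, were no longer called with background subtracted, at -0.26, 0.88 (adjusted p = 0.20) and -0.10. Without the 4 D1 libraries at odds with their label Sox9 stood at 0.05, and Slc1a3 (-0.83, adjusted p = 0.062) and Aqp4 (-0.81, adjusted p = 0.087) also lost their calls. Among other astrocyte genes 13 of 31 were higher and 14 lower, led by Cldn10 (-5.29), Cyp4f14 (-3.92) and Slc39a12 (-3.56).

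In D2-MSNs Apoe (2.39 ± 0.34), Slc1a2 (2.03 ± 0.21) and Clu (2.01 ± 0.27) were again higher in RiboTag than in whole cell libraries, with no overlap between libraries. Aldh1l1 (-3.28 ± 0.40), Gfap (-1.98 ± 0.62) and Slc1a3 (-0.77 ± 0.23) were lower, beside 18.8% of all genes called higher and 54.5% called lower. Without D2 libraries 2 and 6, at odds with their sex label, the same 6 were called, with Apoe at 2.40, Slc1a2 at 2.12 and Clu at 2.04. Of 30196 genes 5041 were then called higher and 13374 lower in RiboTag. With background subtracted Gfap (-1.76, adjusted p = 0.12) and Slc1a3 (-0.53, adjusted p = 0.099) lost their calls. The 8 pan-neuronal genes were all higher in RiboTag libraries in D1 and 7 of 8 in D2, and 6 of 7 endothelial genes tested in D1 and 7 of 7 in D2 were lower. Of 12 reactive astrocyte genes 11 in D1 and 10 in D2 were lower.

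Against RiboTag, nuclear D1 libraries were higher in 9 members. Aldh1l1 (3.69 ± 0.37), Gja1 (3.68 ± 0.33), Slc1a3 (3.37 ± 0.22), Apoe (3.26 ± 0.44), Aqp4 (3.14 ± 0.35) and Gfap (3.10 ± 0.62) had the largest changes, and Sox9 (1.94), S100b (1.75) and Slc1a2 (1.51 ± 0.29, adjusted p = 0.00029) followed. Clu stood at -0.01 ± 0.33. Of all genes 57.9% were called higher and 21.3% lower, with a median of 1.68, and 22 of 32 other astrocyte genes were higher. Without nuclear D1 libraries 1, 5 and 6 Clu was called lower in nuclei (-1.06), Sox9 and S100b lost their calls, and Slc1a2 stood at 0.91. Without the D1 libraries at odds with their sex label S100b (1.64, adjusted p = 0.090) was lost.

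In D2-MSNs 6 members were higher in nuclear than in RiboTag libraries: Aldh1l1 (4.12 ± 0.18), Gfap (2.94 ± 0.24), Gja1 (2.42 ± 0.24), Slc1a3 (1.95 ± 0.14), S100b (1.80 ± 0.32) and Aqp4 (1.10 ± 0.25). Clu was lower (-2.22 ± 0.16, adjusted p = 1.6e-12). Slc1a2 (0.24), Apoe (-0.25) and Sox9 (-0.35) were not called, but with background subtracted Slc1a2 (1.06) and Apoe (0.67, adjusted p = 0.031) were called higher in nuclei and Aqp4 (0.92, adjusted p = 0.084) was lost. Slc1a2 was also called without nuclear D2 library 5 (0.39). The background of this comparison was 68.1% of genes called higher and 23.7% lower, with a median of 2.86, and Aldh1l1 and Gfap lay above it. With protein-coding genes only the median was 1.49, and Gja1 (2.56), Slc1a3 (2.09) and S100b (1.95) lay above it too. Without RiboTag D2 libraries 2 and 6 the same 7 members were called, with Clu at -2.24. Of 32668 genes 21927 were then called higher and 7730 lower in nuclei. Among other astrocyte genes 18 of 30 were higher, such as Cyp4f14 (5.85) and Cldn10 (5.57), and 10 lower, such as Mt1 (-3.87).

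**Figure D4:**
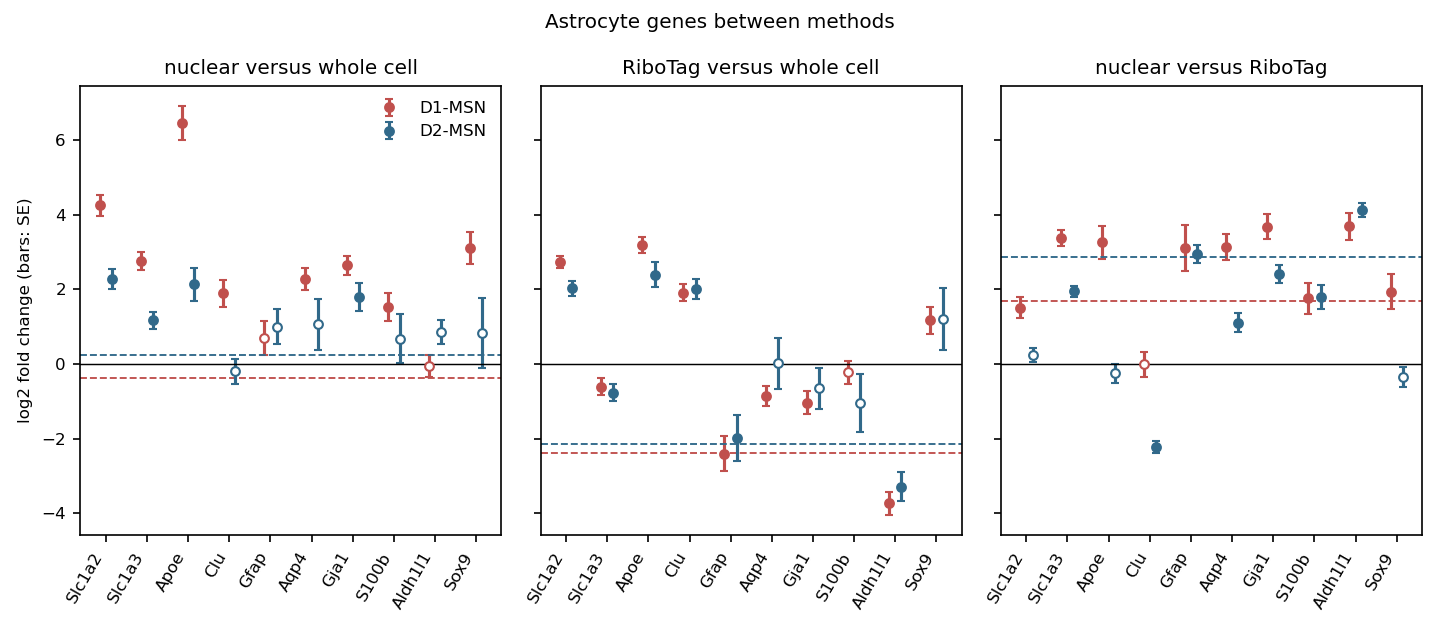
Log2 fold change of each member between methods in D1- (red) and D2-MSNs (blue), first-named method against the second, with SE as bars, called members filled, and dashed lines at the median of all genes tested in each cell type. Slc1a2 and Apoe are higher than in whole cells in both other methods (2.03 to 4.25 and 2.14 to 6.45), and Aldh1l1 and Gfap are the lowest members in RiboTag against whole cell.

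The share of Slc1a2 among the counts of the 10 members was lowest in whole cells and overlapped between the other methods. It was 30.4 to 45.6% in whole cell libraries, 59.9 to 71.0% in nuclear D1, 49.3 to 63.8% in nuclear D2, 68.2 to 82.8% in RiboTag D1 and 61.5 to 73.1% in RiboTag D2. Apoe made up 0.876 to 4.82% in whole cell libraries, 5.00 to 19.1% in nuclear D1 and 2.40 to 8.37% in nuclear D2 and RiboTag libraries. Counts cover whole genes, so background reads favour the long Slc1a2 (132.13 kb) over the short Apoe (3.08 kb). In whole cell libraries the sum of the 10 members was only 1.86 to 4.31 times background. The part of background in these shares was not tested.

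Summed over a list, the 10 members were at 37.6 to 73.4 scaled CPM in whole cell, 112 to 1161 in nuclear and 111 to 218 in RiboTag libraries, and the 32 other astrocyte genes at 228 to 463, 253 to 1143 and 321 to 451. The microglial sum was 38.3 to 54.9 in whole cell, 47.2 to 68.7 in nuclear and 41.5 to 51.8 in RiboTag libraries, and the endothelial sum was 29.7 to 91.7 in whole cell, 16.8 to 91.5 in nuclear and 3.01 to 16.3 in RiboTag libraries. The pan-neuronal sum was highest in RiboTag libraries, at 2449 to 3071. Set against background, the methods differed more. In whole cells the sum of the 10 members was 1.86 to 4.31 times background and the microglial sum 2.07 to 5.98 times. In nuclear libraries they were 2.98 to 507 and 2.05 to 41.8 times, and in RiboTag libraries 283 to 795 and 139 to 304 times. Similar sums thus do not mean similar levels above background. The microglial sum in RiboTag libraries does not speak for each of its 8 genes. Each RiboTag group held 9 to 11 counts of 0 over these genes and its libraries. None of the 8 passed the filters for D1 against D2 in RiboTag libraries.

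**Figure D5:**
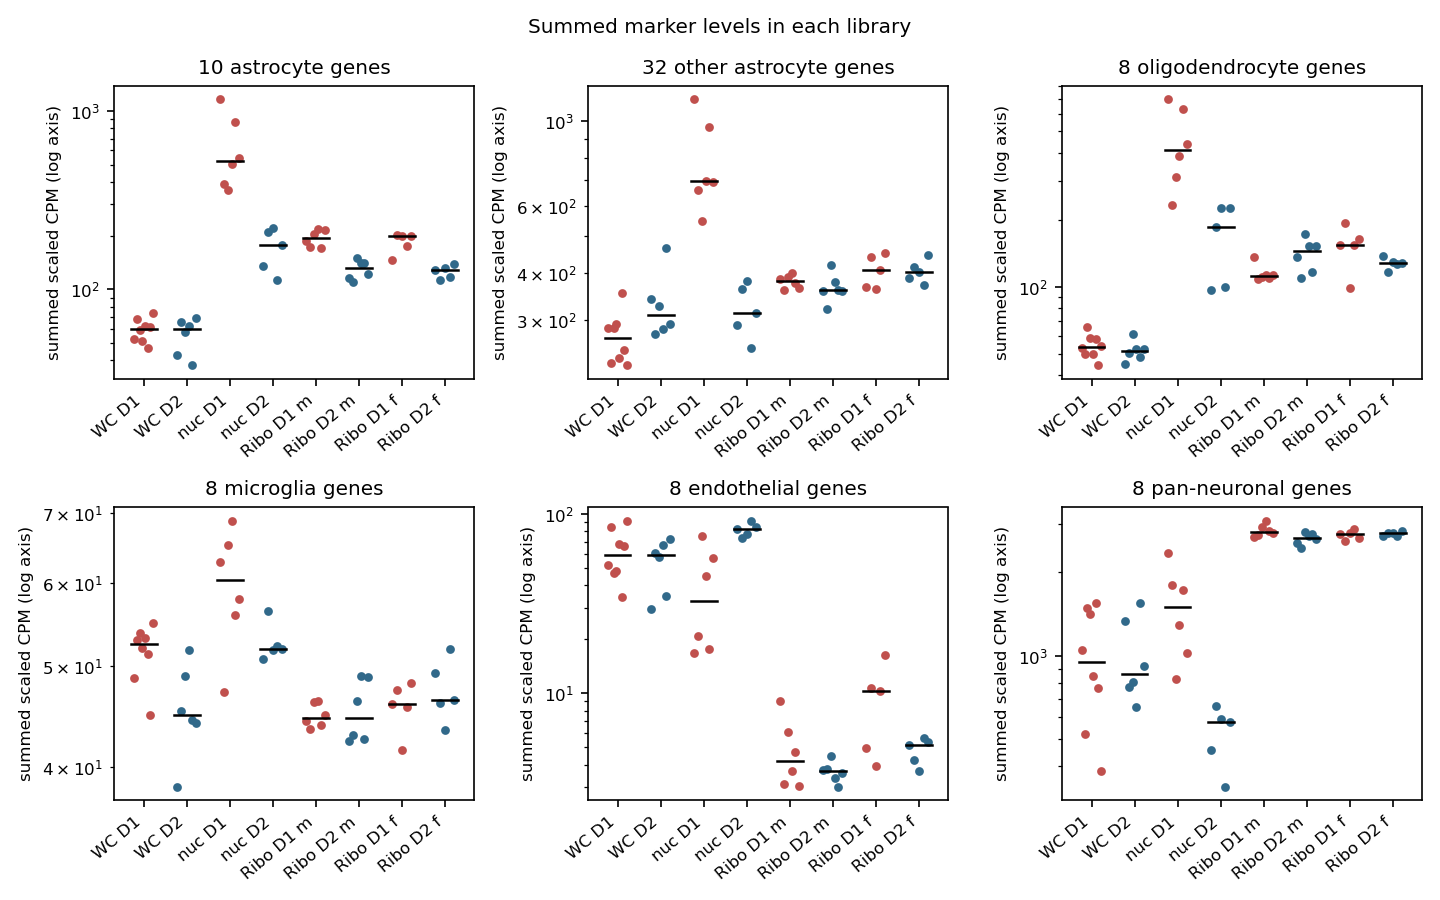
Summed scaled CPM of 6 marker lists in each library, on log axes that differ between panels, with a bar at each group's median (red D1, blue D2). The 10 astrocyte genes and the 8 oligodendrocyte genes are highest in nuclear D1, the endothelial genes lowest in RiboTag and the pan-neuronal genes highest in RiboTag libraries.

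None of the 3 members tested was called between RiboTag libraries labelled female and male, and the other members did not pass the filters. Of the 3 members tested in D1, Apoe stood at 0.43 ± 0.18 (adjusted p = 0.57), Slc1a2 at -0.18 ± 0.10 (adjusted p = 0.69) and Clu at 0.11 ± 0.07 (adjusted p = 0.75), female against male. In D2 they stood at 0.09, -0.13 and -0.15 (Clu, adjusted p = 0.68). Of 7207 genes 0% were called in either direction in D1, where 560 had an unadjusted p of at most 0.05 in edgeR and DESeq2 called 1, and 0.0416% were called higher and 0.0139% lower in D2. Without the 6 libraries at odds with their label no member was called either, with Apoe at 0.60 (adjusted p = 0.61) in D1 and 0.10 in D2. That left 2 libraries labelled male in D1 and 4 in D2. Without RiboTag D1 female library 4, 1 of the 3 members was called higher in female D1. Of 7199 genes 4 were then called higher and 19 lower.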

How the data were processed

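The authors deposited raw counts per gene, made from ribosomal RNA-depleted total RNA libraries aligned with HISAT2 2.0.5 to GRCm38 and counted with featureCounts over whole gene bodies without strand, so intronic reads and reads of overlapping genes are included. The 49 columns gave 47 libraries: a repeat of whole cell D1 number 1 and a second lane of whole cell D2 number 3 were summed with their library. The repeat differed from its library about as much as separate libraries did (chi-square per degree of freedom 6.90, against 7.47 between numbers 3 and 4). Whole cell D2 Rep 7 and 8 were not analysed here. The 10 members and all gene lists were chosen with earlier results of these data known.

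Groups followed the labels. Nuclear D2 libraries and those labelled female are named by the number in their column, which differs from the numbering of the labels. Counts were tested with edgeR 4.0.16 (R 4.3.3; TMM, quasi-likelihood), with Benjamini-Hochberg adjustment over all genes tested. D1 and D2 were compared within each method after the study's filters: FPM above 1 in at least 2 libraries, and FPKM of at least 1 in a library and at most 50000 in all (nuclear, whole cell) or at least 0.1 in 2 (RiboTag). A gene was called at adjusted p of at most 0.05 and log2 fold change beyond 0.38; the D1 against D2 calls also needed a mean above the 25th percentile and, in nuclei, an SE below the 75th. Method comparisons used only the FPM filter and scaling over all 47 libraries. Fold changes are D2 against D1, first-named method against second, or female against male. The SE is the size of the log2 fold change divided by the root of edgeR's F statistic. The text names all 10 members, and of other astrocyte genes up to 3 of those called with the largest change; 1 gene is not reported here. The genes most like the members had a mean of at least 5 scaled CPM, and likeness used log2(scaled CPM + 0.5). Background came from 1289 receptor genes (10197 kb). GENCODE annotation matched 52489 of 52636 genes, and promoters were read from RefSeq. Tests were checked on simulated counts with 200 genes changed by 1.5 on the log2 scale. The share recovered ran from 25.5% (nuclear against whole cell D2) to 80% (nuclear against RiboTag D2). For D1 against D2 it was 40% in whole cells, 45% in nuclei, and 76.5% and 75% in RiboTag libraries labelled male and female. False calls made up 0 to 10.7% of calls, with 10.7% in RiboTag against whole cell D2. A member not called can thus still differ. Depth limits the low members, and intervals at 0 cover counting error only. DESeq2 1.42.0 was an alternative. Replicate numbers did not pair libraries: correlations of same-numbered libraries' deviations ran from -0.403 to 0.190. Tables and plots used Python 3.11.15, pandas 2.3.3, NumPy 2.4.6 and matplotlib 3.10.9.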

Additional observations from a re-analysis of the deposited data

Results flagged for a closer look

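The D2 against D1 change differed between methods for several members in the fit over libraries labelled male (edgeR, adjusted over 36239 genes). Nuclear minus whole cell, the difference was -4.31 for Apoe, -2.29 for Sox9, -2.09 for Clu, -1.98 for Slc1a2 and -1.6 for Slc1a3, beside 11.8% of all genes below 0. Nuclear minus RiboTag, it was -3.52 for Apoe, -2.2 for Clu, -2.09 for Aqp4, -1.43 for Slc1a3 and -1.27 for Slc1a2, beside 9.82% of all genes below 0, and none of these 5 passed without the 6 libraries at odds with their sex label.

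Single libraries stood apart from their group in 4 of 80 sets of levels examined, where a test at the 95% level gives about 1 in 20 by chance. RiboTag D2 male library 3 was the highest of 6 in Slc1a3 (7.25 scaled CPM) and in Apoe (11.1). Whole cell D2 library 1 was the highest of 6 in Clu, at 12.0. RiboTag D1 female library 4 was the lowest of 5 in Clu, at 21.8.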

How the results depend on the processing

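Of 104 counts of called members under alternatives 96 stayed within 1.5 times, and of 703 fold changes 656 kept their direction and side of the threshold. In nuclei 4 members were called between D1 and D2, against 7 without the FPKM filter, 2 without nuclear D1 libraries 1, 5 and 6, and 2 to 4 when each D2 library was left out. In RiboTag libraries labelled female 1 to 2 were called when each library was left out, and for female against male D1 0 to 1. The members past the threshold in nuclear minus RiboTag numbered 5, and 0 without the 6 libraries at odds with their sex label. With background subtracted Aqp4 in RiboTag against whole cell D1 moved to 0.88 and Apoe in nuclear against RiboTag D2 to 0.67. The cause of these shifts was not tested. Leaving out the 3 nuclear D1 libraries or the 6 at odds with their sex label was chosen after seeing the data.

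With the replicate number as a block, 0 members were called in whole cell and 1 in RiboTag male D1 against D2, 6 in nuclear against whole cell D1 (Clu and S100b lost), 8 in RiboTag against whole cell D1 (Slc1a3 lost), 9 in nuclear against RiboTag D1 and 6 in RiboTag against whole cell D2. Genes called higher and lower with the block, in the same order, were 21 and 97 of 16824, and 64 and 110 of 6822. For nuclear against whole cell D1 they were 390 and 195 of 33207, against 2442 and 1039 without it. The other 3 had 6025 and 21346 of 32498, 14378 and 5595 of 25792, and 5973 and 15186 of 30205. In the comparisons that hold nuclear D2 libraries or libraries labelled female, no block could be fitted. No paired analysis was possible because there the columns of nuclear D2 and of the libraries labelled female carry numbers that differ from those of the labels. Among all genes, whole cell calls were 68 higher and 146 lower in D2 with TMM, and 439 and 253 with DESeq2; nuclear calls were 331 and 976, and 1175 and 6208 without the FPKM filter.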
